A study of Mus musculus with 12 samples.

Results

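The 8 genes described here were Nppa, Nppb, Nppc, Npr1, Npr2, Npr3, Corin and Gucy2e, the natriuretic peptides, their receptors, the protease that activates the atrial peptide, and a guanylyl cyclase best known from the retina. They were taken by symbol from a count table of 51826 entries, and all 8 were found. The set was chosen by name with earlier results of the same libraries known. Gucy2e was treated as selected on its measured levels, so that its differences are given without a test.

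The study asked which transcripts change in the heart when cardiomyocytes express the expanded CUG repeat RNA of myotonic dystrophy type 1. Atria and ventricles of 6 female FVB mice gave 12 poly(A) RNA-Seq libraries, 3 in each of 4 groups. CUG960 +dox mice (V119, V120 and V123) were homozygous for TREDT960I, a dox-induced transgene whose human DMPK sequence holds 960 CUG repeats, and also hemizygous for MHCrtTA, which places the reverse tetracycline transactivator under the α myosin heavy chain promoter. MHCrtTA +dox controls (V327, V333 and V334) were hemizygous for the transactivator alone. Both genotypes received dox chow from postnatal day 1 and were 10 weeks old, so dox and the transactivator were common to all groups. The transactivator is a cardiomyocyte transgene, whereas the libraries were made from whole chambers with all their cell types.

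Atrial natriuretic peptide (Nppa) and brain natriuretic peptide (Nppb) are hormones that the heart releases when its walls are stretched. These hormones bind natriuretic peptide receptor 1 (Npr1), and C-type natriuretic peptide (Nppc) binds receptor 2 (Npr2). Both receptors are guanylyl cyclases that make the second messenger cGMP, which lowers blood pressure and restrains cardiac growth. Receptor 3 (Npr3) lacks a cyclase and clears the peptides from the circulation. Corin is a membrane protease of cardiomyocytes that cuts the Nppa precursor into the active hormone. Gucy2e encodes guanylyl cyclase E, which makes cGMP in photoreceptors and does not bind natriuretic peptides.

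Nppa lies on chromosome 4 of GRCm38 (chr4:148000722-148002079, + strand), and Nppb lies 13517 bases away on the same strand (chr4:147985788-147987205). Gucy2e lies on chromosome 11 (chr11:69218117-69237036, − strand), Corin on chromosome 5 (chr5:72300025-72504473, − strand) and Npr3 on chromosome 15 (chr15:11839896-11907287, − strand). Npr1 (chr3:90450591-90465866, − strand), Npr2 (chr4:43631935-43651244, + strand) and Nppc (chr1:86666291-86670571, − strand) complete the set. All 8 are annotated as protein coding in GENCODE M21. The antisense gene Gm13054 overlaps Nppa on the opposite strand.

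The promoters of the neighbouring peptide genes Nppa and Nppb and of Gucy2e are shown because Nppa had the widest step between chambers, Gucy2e the widest between genotypes, and Nppb is the neighbour of Nppa. Each runs from 250 bases before to 50 bases after the RefSeq start site (GRCm38.p6). They are reference sequence and not FVB sequence. Capitals mark TATAAA on the printed strand, and GATAA (GATA factors), CATTCC (TEAD factors) and GGATTA (OTX and CRX homeodomain proteins) on either strand.
Nppa promoter, chr4:148000472-148000771, + strand: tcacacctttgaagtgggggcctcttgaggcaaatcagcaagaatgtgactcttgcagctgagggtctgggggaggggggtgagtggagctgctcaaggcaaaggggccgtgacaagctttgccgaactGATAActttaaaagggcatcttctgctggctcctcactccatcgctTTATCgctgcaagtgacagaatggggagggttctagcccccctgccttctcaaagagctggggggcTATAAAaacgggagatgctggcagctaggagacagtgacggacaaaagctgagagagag
Nppb promoter, chr4:147985650-147985949, + strand: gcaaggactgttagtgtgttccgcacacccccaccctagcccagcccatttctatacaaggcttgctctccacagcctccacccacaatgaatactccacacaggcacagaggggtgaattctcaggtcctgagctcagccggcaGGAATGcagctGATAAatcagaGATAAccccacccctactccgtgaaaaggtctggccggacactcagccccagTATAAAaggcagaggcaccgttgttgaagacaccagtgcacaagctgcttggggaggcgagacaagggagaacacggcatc
Gucy2e promoter, chr11:69236973-69237272, − strand: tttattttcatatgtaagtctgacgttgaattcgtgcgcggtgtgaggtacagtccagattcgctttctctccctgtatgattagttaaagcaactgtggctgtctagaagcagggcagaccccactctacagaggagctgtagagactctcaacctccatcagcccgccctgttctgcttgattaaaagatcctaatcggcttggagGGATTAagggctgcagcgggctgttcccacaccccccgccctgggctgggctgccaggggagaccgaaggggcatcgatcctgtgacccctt

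Nppa and Nppb each held 1 TATAAA and 2 GATAA matches, and Nppb also held 1 CATTCC match. Gucy2e held 1 GGATTA match and no TATAAA or GATAA. Over 32851 promoters of the same length, TATAAA was present in 8.32%, GATAA in 25.4%, CATTCC in 14.7% and GGATTA in 7.06%. The CArG box, searched on both strands, was present in 1.63% of promoters and in none of the 8. Such matches describe the letters and were not measured as binding sites.

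The deposited expected counts summed to between 116127966 and 160676189 per library. Levels are given as counts scaled to a common library size (CPM, the usual unit of RNA-Seq levels) after TMM scaling over the 12 libraries. A gene was called where edgeR's quasi-likelihood test gave an adjusted P value under 0.05 over all genes tested and the fold change was at least 1.5. The libraries followed their chamber labels. Summed over 11 atrial cardiomyocyte genes, the level was between 15580 and 19160 CPM in atria and between 969 and 1271 CPM in ventricles. Summed over 6 ventricular cardiomyocyte genes, it was between 1053 and 1391 CPM in atria and between 14940 and 18860 CPM in ventricles. Pam was the most abundant gene of the atrial list in each ventricular library, and Myh7 of the ventricular list in each atrial one. Kcna5 of the atrial list went the other way, with means of 6.64 CPM in control atria and 24.1 CPM in control ventricles.

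The ventricular library of V123 stood apart from those of the other CUG960 +dox mice. Sln, an atrial regulator of the calcium pump, was at 18.5 CPM in V123 against 0.213 in V119 and 0.341 in V120. Myl7, the atrial regulatory light chain, was at 55.8 CPM in V123 against 0.192 in V119 and 0.305 in V120. In control ventricles, Sln was between 2.89 and 7.82 CPM and Myl7 between 4.95 and 19.3 CPM. Sln and Myl7 were therefore above every control in V123 and below every control in V119 and V120. Bmp10, another atrial transcript, was at 0.207 CPM in V123 and did not follow them. Where the genotype call of a named gene ended without V123 or another mouse, this is given with it.

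Nppa was the most abundant of the 8 genes in every atrial library. Per kilobase of merged exons, its mean level in control atria was 18370 CPM, against 442 for Nppb, 59.05 for Corin, 32.9 for Npr3, 13.1 for Npr2, 6.18 for Npr1, 0.0865 for Gucy2e and 0.0402 for Nppc. In control ventricles the order began with Nppb at 138 ± 50.5 CPM per kilobase and Nppa at 72.1 ± 22.5 CPM per kilobase (SD, n = 3), and their ranges did not overlap. Npr1 and Npr2 stood apart in every group, with Npr2 the higher per kilobase. Nppc was close to absent, with between 1 and 13 counts in each library, and was too low to be tested.

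**Figure D1:**
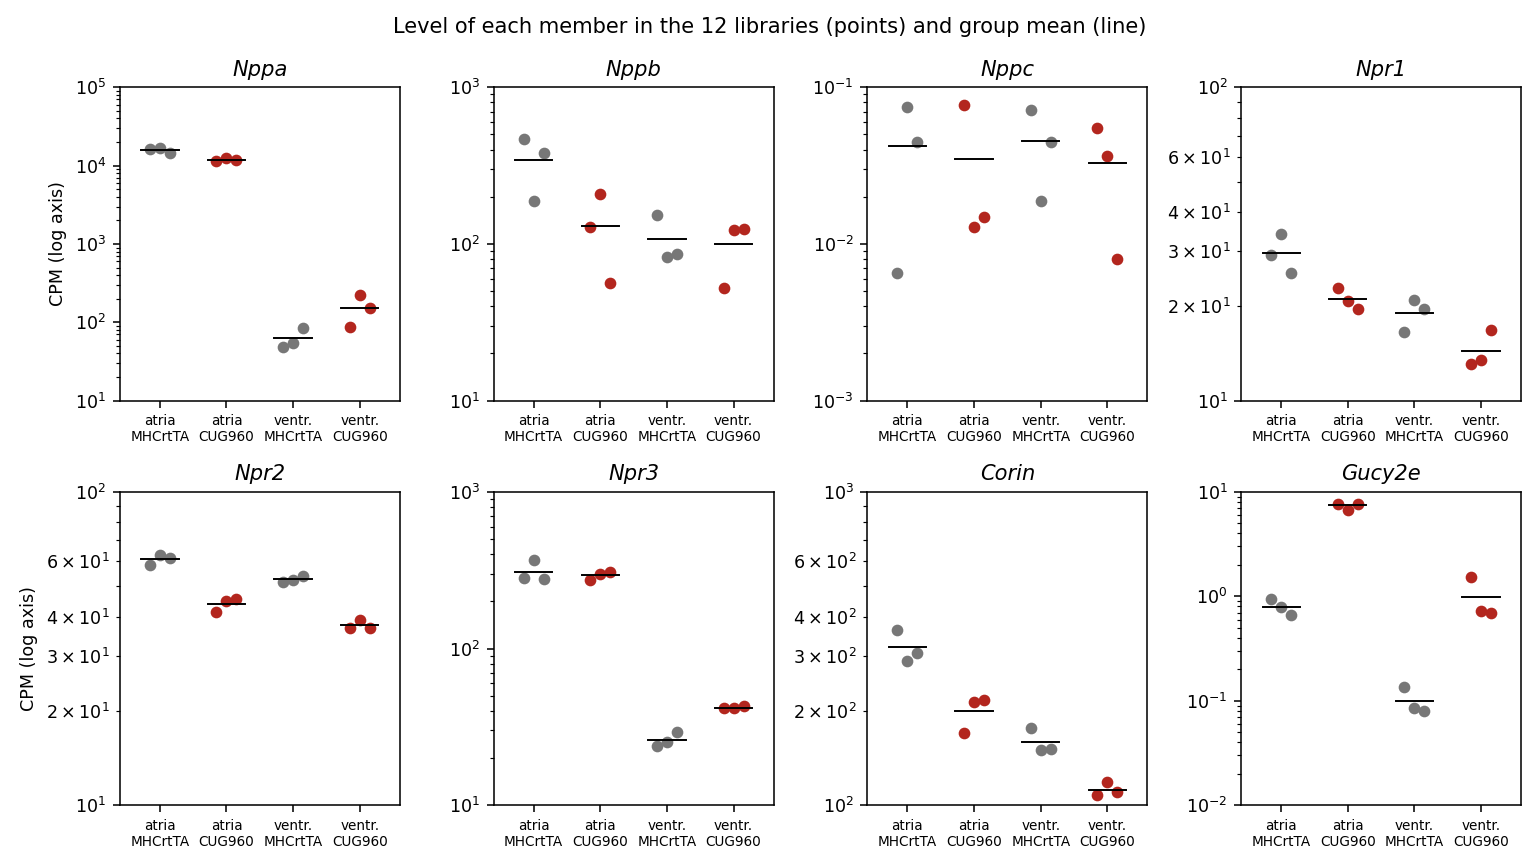
Level of each gene in CPM (log axis) in the 12 libraries. Points are libraries, in the order V327, V333, V334 for MHCrtTA +dox controls (grey) and V119, V120, V123 for CUG960 +dox mice (red), and lines are group means. Nppa shows the widest step between chambers and Gucy2e the widest between genotypes.

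In comparison with ventricles, atria of MHCrtTA +dox controls had more of most of these transcripts. Nppa was 253-fold higher, Npr3 11.7-fold, Nppb 3.19-fold, Corin 1.99-fold and Npr1 1.54-fold. Of the 6 genes tested besides Gucy2e, 5 were called higher in atria, where 18.3% of all genes tested were called in this direction. Npr2 was 1.15-fold higher and did not reach the fold limit (adjusted P value = 0.019, edgeR). Nppa in control atria was at 16496, 16556 and 14616 CPM, and in the ventricles of the same mice at 48.4, 54.1 and 84.6 CPM. The largest adjusted P value of the 5 called genes was 0.0037 (Nppb, edgeR). Npr1 fell just under the fold limit without V327 or without V333 (log2 0.54 and 0.58).

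Atria of CUG960 +dox mice kept the chamber difference of Nppa, Npr3 and Corin at a smaller fold, and the Nppb difference was not called. Nppa was 76.3-fold higher in atria than in ventricles, Npr3 6.92-fold and Corin 1.77-fold. These were 3 of the 6 genes, where 17.2% of all genes tested were called higher in atria. Nppb differed by a log2 fold change of 0.37 ± 0.44 (SE), with an adjusted P value of 0.51 (edgeR). Npr1 was 1.44-fold higher (adjusted P value = 0.0036, edgeR), under the fold limit, and was over it without V123. Whether a gene's chamber difference itself differed between genotypes is tested by the interaction given further on.

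In atria, CUG960 +dox mice had less Nppa than controls. The level was 11432, 12433 and 11883 CPM in CUG960 +dox mice and 16496, 16556 and 14616 CPM in controls. The groups did not overlap, and Nppa fell by 25.3% (log2 fold change −0.42 ± 0.07, adjusted P value = 0.0083, edgeR). This was under the fold limit of 1.5. In bulk RNA, fewer cells of a type and less RNA per cell cannot be told apart.

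In atria Nppb varied more between libraries of a group than Nppa, with a mean of 345 ± 143 CPM in controls and 131 ± 75.9 CPM in CUG960 +dox mice (SD, n = 3), against 15889 ± 1103 and 11916 ± 502 CPM for Nppa. Atrial Nppb was at 467, 187 and 382 CPM in controls and at 128, 208 and 56.1 CPM in CUG960 +dox mice. The groups overlapped, since V333 was below V120. The log2 fold change was −1.41 ± 0.46, with an adjusted P value of 0.081 (edgeR), and its 95% interval ran from −2.47 to −0.34. Without the filter on low counts Nppb was called lower (log2 −1.41, adjusted P value = 0.015, edgeR), and under the other alternatives the adjusted P value was between 0.055 and 0.20. In ventricles Nppb was at 153, 82.6 and 86.6 CPM in controls and at 52.4, 123.1 and 124 CPM in CUG960 +dox mice. The log2 fold change there was −0.11 ± 0.32 (adjusted P value = 0.87, edgeR), and its sign turned without V119 or without V327. The interval from −0.84 to 0.62 covers both a rise and a fall beyond the fold limit.

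In ventricles, Nppa was higher in CUG960 +dox mice, the opposite direction to atria. It was at 86.7, 225 and 151 CPM in CUG960 +dox mice and at 48.4, 54.1 and 84.6 CPM in controls. The groups did not overlap, but V119 and the control V334 were close to each other. The fold change was 2.46 (log2 1.301 ± 0.31, adjusted P value = 0.031, edgeR). The call was lost without V120 (log2 0.93, adjusted P value = 0.10), V123 (1.31, 0.063), V327 (1.15, 0.10) or V333 (1.21, 0.090), and held without V119 (1.59, 0.0070) or V334 (1.59, 0.024), all by edgeR.

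**Figure D2:**
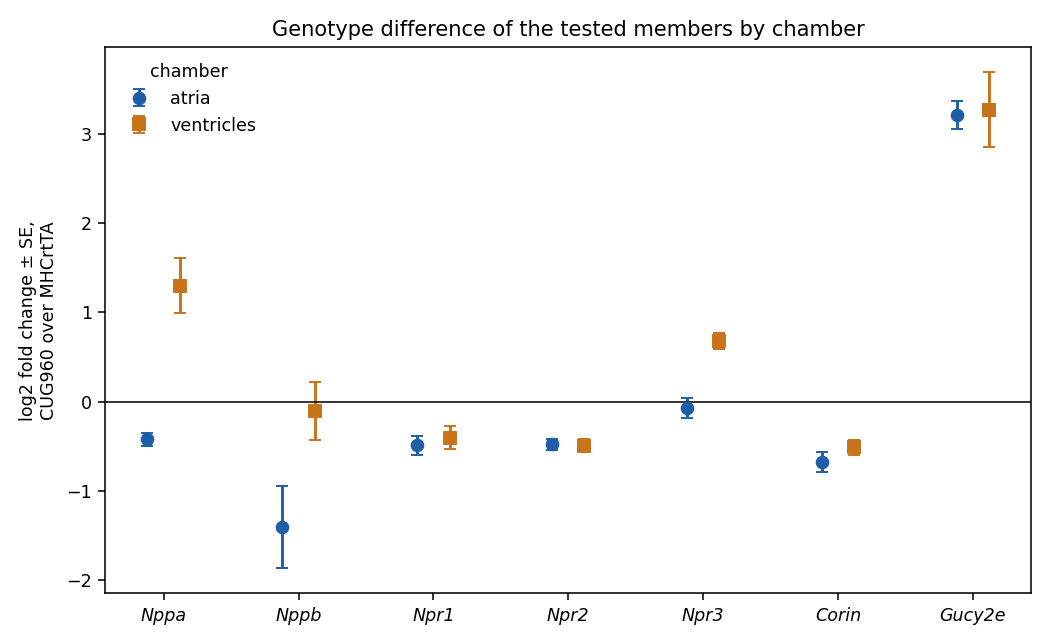
Log2 fold change of CUG960 +dox mice over MHCrtTA +dox controls, with standard errors, for the 7 genes with enough counts, in atria (circles) and ventricles (squares). Nppa lies below 0 in atria and above 0 in ventricles, Npr2 and Corin lie below 0 in both chambers, and Gucy2e lies above 3 in both. Gucy2e was selected on its measured levels.

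Because atria hold so much Nppa, a small amount of atrial tissue in a ventricular sample adds measurably to it. Ventricular Nppa was 0.293%, 0.327% and 0.579% of the atrial level of the same mouse in the controls V327, V333 and V334. In CUG960 +dox mice it was 0.759% (V119), 1.81% (V120) and 1.27% (V123). Sln was at 0.221%, 0.225% and 0.529% of its atrial level in control ventricles. It was at 0.0162% in V119, 0.0225% in V120 and 1.44% in V123. Myl7 ran from 0.174% to 0.689% in controls and was at 0.00580% in V119, 0.0105% in V120 and 2.20% in V123. Thus in V119 and V120 the share of Nppa was above each control while the shares of Sln and Myl7 were below each control. In V123 all 3 transcripts were above each control. The rest of the atrial list did not move as a set in V119 and V120. Pam (26.8% and 27.5%), Tbx5 (18.9% and 20.7%) and Kcna5 were above each control in both mice. Myl4, Bmp10, Nr2f2 and Kcnj3 were below each control in both, and Dkk3 and Stard10 in V119 only.

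**Figure D3:**
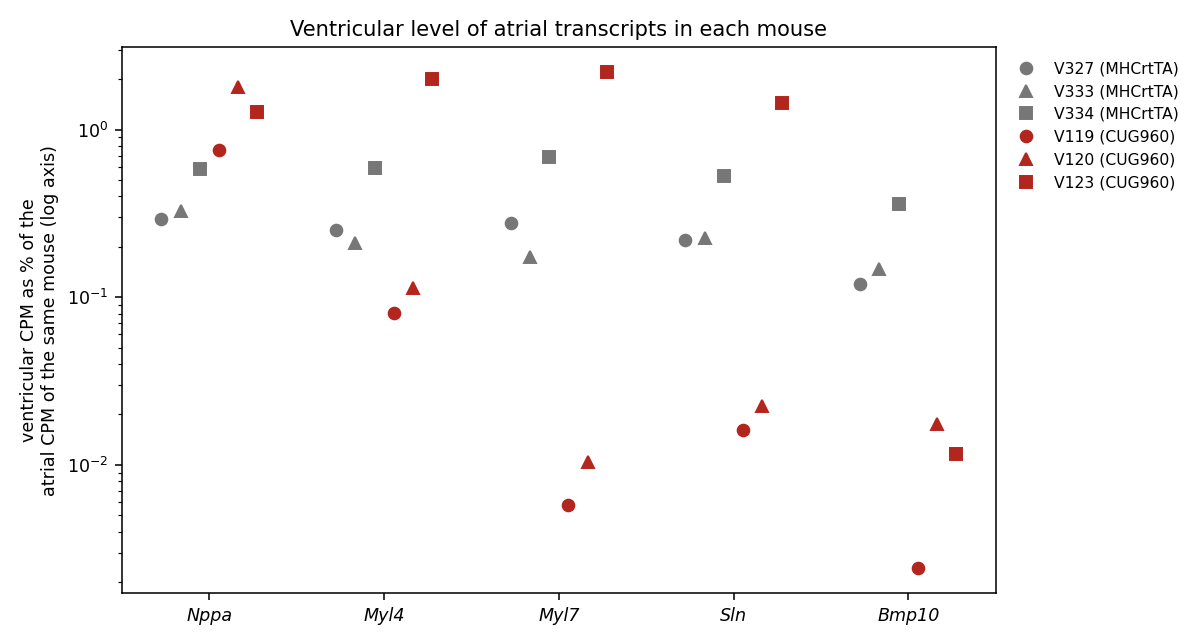
Ventricular level as a percentage of the atrial level of the same mouse (log axis) for Nppa and 4 of the 11 listed atrial genes. MHCrtTA +dox controls are in grey and CUG960 +dox mice in red. V119 and V120 are above the controls for Nppa and below them for the 4 atrial genes shown. V123 is above the controls for Nppa, Myl4, Myl7 and Sln but not for Bmp10.

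The largest even carry-over of atrial tissue that a ventricular library allows was taken as the lowest such percentage over the atrial genes with at least 10 CPM in atria. This was 0.120%, 0.148% and 0.361% in the controls and 0.00241%, 0.0105% and 0.0117% in V119, V120 and V123. After that share of the same mouse's atrial Nppa was subtracted, 28.6, 29.6 and 31.8 CPM were left in controls and 86.5, 223 and 150 CPM in CUG960 +dox mice. The groups did not overlap, and the difference in mean log2 CPM was 2.25 (exact two-sided permutation test, P = 0.1, the smallest that 3 mice against 3 can give). Without subtraction the difference was 1.24.

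That limit came from Bmp10 in 5 of the 6 mice and from Myl7 in V120. Bmp10 is known mainly from the right atrium, and it was itself lower in CUG960 ventricles (log2 fold change −4.06, adjusted P value = 0.0016, edgeR). With the share taken from Sln, 11.9, 16.9 and 7.38 CPM of Nppa were left in controls, 84.9 in V119 and 222 in V120, whereas V123 came out below 0. With the share taken from Myl7, V123 and the control V334 came out below 0. The median percentage over the atrial list is set partly by genes that ventricles also express, so it does not measure carry-over. With it all 6 mice came out below 0. The Nppa left in a ventricular library thus depended on the transcripts that set the share. In V119 and V120 the Sln share took 1.85 and 2.80 CPM of the 86.7 and 225 CPM of Nppa found. The median share took 265 and 434.5 CPM there. In V123 the Sln share took 171 CPM, more than the 151 CPM found. Whether ventricular Nppa was made in ventricles or came from atrial tissue in the sample was not tested.

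Mybphl, a myosin-binding protein of atrial cardiomyocytes, had the profile most like that of Nppa over the 12 libraries. The root mean square difference of its centred log2 CPM from that of Nppa was 0.44, the smallest among 13111 genes. In ventricles it was at 2.32, 2.29 and 4.81 CPM in controls and at 4.45, 19.6 and 18.5 CPM in V119, V120 and V123. V119 was thus below the control V334, and V120 and V123 were above every control. The genes named for their likeness to Nppa, Nppb or Gucy2e were selected on these same levels, so that no test is given for them.

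The antisense gene Gm13054 (0.45) and Mlana (0.52), a melanosomal protein gene, followed as next most like Nppa. Gm13054 was at 47.5, 46.6 and 52.3 CPM in the atria of controls V334, V333 and V327 and below 1 CPM in every ventricular library. Whether reads of Nppa and Gm13054 were kept apart by strand in the counting is not given in the sources used here. For Nppb the nearest profiles were those of Gm11175 (0.55), Phgdh (0.58) and Sgms2 (0.58). Phgdh is the first enzyme of serine synthesis and Sgms2 a sphingomyelin synthase. The gene next to the peptide pair, the chloride transporter Clcn6, differed by log2 −0.03 (atria) and 0.12 (ventricles).

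Among the receptors, Npr2 was lower in CUG960 +dox mice in both chambers by nearly the same fold. In atria it was at 41.5, 44.8 and 45.5 CPM in CUG960 +dox mice and at 58.4, 63.0 and 61.5 CPM in controls. The ventricular level was 36.7, 39.1 and 36.7 CPM against 51.7, 52.4 and 53.7 CPM. The groups did not overlap in either chamber. Npr2 fell by 28.3% in atria (adjusted P value = 0.0025) and by 29.0% in ventricles (adjusted P value = 0.0029, both edgeR), under the fold limit.

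Npr1 was also lower in CUG960 atria, at 22.9, 20.8 and 19.6 CPM against 29.1, 34.1 and 25.5 CPM in controls. These groups did not overlap, and Npr1 fell by 28.9% (adjusted P value = 0.023, edgeR), under the fold limit. It passed this limit without V334 (log2 −0.59, adjusted P value = 0.014, edgeR). Ventricular Npr1 was at 13.1, 13.5 and 16.8 CPM against 16.6, 21.02 and 19.6 CPM, and V123 was above the control V327. The ventricular log2 fold change was −0.41 ± 0.13 (adjusted P value = 0.080, edgeR).

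Npr1 is abundant in endothelium and endocardium, and the markers of these cells were given beside it. All 9 endothelial and endocardial markers had log2 fold changes below 0 in CUG960 atria, with a median of −0.46, and 2 of the 9 were called, Pecam1 (log2 −0.71) and Tek (log2 −0.62), where 5.49% of all genes tested were called. Tek fell under the fold limit without V119, V327 or V333 (log2 between −0.57 and −0.55). In ventricles 8 of 9 were below 0, with a median of −0.45, and 0 were called, where 4.75% of all genes tested were called. The medians of all genes tested were −0.01 in each chamber. Their summed level was between 584.5 and 676 CPM in CUG960 atria and between 739 and 910 CPM in control atria. In ventricles it was between 582.5 and 621 CPM against between 725.5 and 876 CPM. Pecam1, an adhesion protein of endothelial junctions, was the most abundant of them in each atrial library and Kdr or Cdh5 in each ventricular one, and none was at 0 counts in any library. The part of these cells in the lower Npr1 and Npr2 levels was not tested.

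The clearance receptor Npr3 differed between genotypes in ventricles and not detectably in atria. Its ventricular level was 41.6, 41.5 and 42.9 CPM in CUG960 +dox mice and at 23.9, 25.4 and 29.2 CPM in controls. The 3 CUG960 libraries were close together and all above the controls. The fold change was 1.60 (log2 0.68 ± 0.09, adjusted P value = 0.0021, edgeR), and the call held without each mouse in turn, V123 included (log2 0.66). In atria Npr3 was at 272, 301 and 309 CPM against 281, 365 and 279 CPM, and the groups overlapped. The atrial log2 fold change was −0.08 ± 0.11 with a 95% interval from −0.33 to 0.18 (adjusted P value = 0.69, edgeR). When the Sln share of atrial Npr3 was subtracted, 41.5, 41.4 and 38.5 CPM were left in CUG960 ventricles and 23.3, 24.6 and 27.7 CPM in control ventricles, again without overlap.

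Corin was lower in CUG960 +dox mice in both chambers. In atria it was at 170, 213 and 217 CPM against 362, 288 and 307 CPM in controls, and the groups did not overlap. Corin fell by 37.5% (log2 fold change −0.68 ± 0.11, adjusted P value = 0.0076, edgeR) and was called in atria. Without V119 its log2 fold change was −0.57, under the fold limit. Ventricular Corin was at 108, 118 and 110 CPM against 176, 150 and 152 CPM. There it fell by 29.9% (adjusted P value = 0.0067, edgeR), without overlap but under the fold limit.

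In atria, 1 of these 6 genes was called (Corin), where 5.49% of all genes tested were called. At any fold, 4 of the 6 had an adjusted P value under 0.05 and were lower (Nppa, Npr1, Npr2 and Corin), against 6.62% of all genes tested, and none was higher, against 7.95%. The groups did not overlap for these 4 genes, against 35.7% of all genes tested. In ventricles 2 of the 6 were called (Nppa and Npr3), against 4.75% of all genes tested. At any fold, Nppa and Npr3 were higher, against 5.73%, and Npr2 and Corin were lower, against 4.20%. The groups did not overlap for these 4 genes, against 31.2%. These shares describe a set that was selected with the results known and are no test of it.

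The interaction of chamber and genotype asked whether a gene's genotype difference was the same in atria and ventricles. For Nppa the ventricular log2 fold change exceeded the atrial one by 1.72 ± 0.38 (adjusted P value = 0.049, edgeR), and for Npr3 by 0.75 ± 0.15 (adjusted P value = 0.029, edgeR). These were 2 of the 6 genes, where 1.38% of all genes tested were called. With the mouse as a replicate block, the adjusted P values were 0.039 for Nppa and 0.033 for Npr3. Nppa lost the call with RLE size factors (adjusted P value = 0.050) and without V120, V123, V327 or V333 (between 0.15 and 0.24). Npr3 lost it without V119, V120, V123, V327 or V333 (between 0.077 and 0.14). For Npr2 the interaction was −0.01 with a 95% interval from −0.20 to 0.17, and for Corin 0.16 with an interval from −0.17 to 0.49. For Nppb the interaction was 1.296 with an interval from −0.12 to 2.71.

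Gucy2e was the gene with the largest step between genotypes among the 8. In atria it was at 7.74, 6.76 and 7.72 CPM in CUG960 +dox mice and at 0.944, 0.786 and 0.656 CPM in controls. In ventricles it was at 1.53, 0.726 and 0.686 CPM in CUG960 +dox mice and at 0.135, 0.0851 and 0.0801 CPM in controls, which were 15, 9 and 9 counts. The fitted fold change was 9.27 in atria and 9.67 in ventricles. Every CUG960 library lay above every control library of its chamber. Among CUG960 ventricles V119 had the highest level, and in atria the 3 CUG960 libraries were close together.

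Within each genotype Gucy2e was higher in atria than in ventricles, by 7.82-fold in controls and by 7.43-fold in CUG960 +dox mice. CUG960 ventricles were therefore close to control atria, at 0.979 ± 0.473 and 0.795 ± 0.144 CPM (SD, n = 3), and their ranges overlapped. When the Sln share of atrial Gucy2e was subtracted, between 0.575 and 1.52 CPM were left in CUG960 ventricles and between 0.0767 and 0.133 CPM in control ventricles. Per kilobase, Gucy2e in CUG960 atria was at 0.805 CPM, against 4.42 for Npr1 and 9.41 for Npr2.

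Of 14 photoreceptor genes besides Gucy2e, 5 had enough counts to be tested in atria and 3 in ventricles, and 1 was called in each chamber, where 5.49% (atria) and 4.75% (ventricles) of all genes tested were called. Below 0 were 4 of 5 in atria (median log2 fold change −0.55) and 2 of 3 in ventricles (median −1.45), against a median of −0.01 over all genes tested in each chamber. Sag, the visual arrestin, had the positive value in each chamber. In ventricles it was between 0.213 and 0.311 CPM in CUG960 +dox mice and between 0.125 and 0.180 CPM in controls, without overlap (log2 fold change 0.70, adjusted P value = 0.24, edgeR). In atria the groups overlapped for Sag (log2 0.63, adjusted P value = 0.37, edgeR). Rp1, a microtubule protein of photoreceptor outer segments, was the gene called. It was the most abundant of them in each library and was lower in both chambers, by a log2 fold change of −1.10 in atria and −3.09 in ventricles (adjusted P value = 8.1e-04 and 1.4e-05, edgeR). Summed over the list, the level was between 18.5 and 23.7 CPM in CUG960 atria and between 42.0 and 50.3 CPM in control atria. Between 1 and 7 of the 14 genes were at 0 counts in a given library.

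Cited1, a transcriptional coregulator, had the profile most like that of Gucy2e (root mean square difference 0.65 over 12 libraries). It was at 12.5, 10.1 and 10.3 CPM in CUG960 atria and at 0.951, 1.07 and 1.06 CPM in control atria. In ventricles it was at 3.02, 3.72 and 1.89 CPM in CUG960 +dox mice and between 0.285 and 0.387 CPM in controls. Rps6ka6, a ribosomal S6 kinase gene, and Vwc2, which encodes a secreted BMP antagonist, followed at 0.85 each. Alox8, a lipoxygenase gene that lies 20274 bases from Gucy2e on the same strand, was also called higher in CUG960 atria (log2 fold change 2.11 ± 0.33, adjusted P value = 0.0057, edgeR). It was at 1.91, 2.45 and 1.90 CPM there and at 0.721, 0.470 and 0.255 CPM in control atria. In ventricles Alox8 had at most 4 counts in 5 libraries and 35 counts in V123.

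Of 42 symbols listed for further genes of the cGMP pathway (processing, clearance, synthesis and signalling), 39 were in the table. Some of the listed symbols were other names of genes already counted, such as Gucy1a1 for Gucy1a3. In atria 32 were tested, of which 1 was called higher and 2 lower, where 5.49% of all genes tested were called. Below 0 were 20 of the 32, with a median log2 fold change of −0.15 against −0.01 for all genes. In ventricles 35 were tested, of which 0 were called higher and 2 lower, where 4.75% of all genes tested were called. Below 0 were 25 of the 35, with a median of −0.20 against −0.01.

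Mrvi1, a target of cGMP-dependent protein kinase that restrains calcium release, was the gene called higher in atria. Its mean was 180 ± 17.4 CPM in CUG960 atria and 92.3 ± 16.5 CPM in control atria (log2 fold change 0.96 ± 0.13, adjusted P value = 0.0028, edgeR). In ventricles its log2 fold change was −0.23 ± 0.16, and the interaction was called (log2 −1.19, adjusted P value = 0.027, edgeR). The atrial call held without each mouse, and the interaction was called only with all mice or without V333 (adjusted P value between 0.052 and 0.11 without another mouse, edgeR). The nitric oxide synthases Nos2 and Nos3 were called lower in atria (log2 −0.78 and −0.70, adjusted P value = 0.027 and 0.026, edgeR). The Nos2 call was lost without any mouse but V123 (adjusted P value between 0.057 and 0.075, edgeR). Nos3 lost it without V119, V120 or V123 (between 0.055 and 0.099, edgeR) and fell under the fold limit without V333 (log2 −0.48). Nos3 is the endothelial enzyme, and the endothelial markers are given above. The part of endothelial cells in the lower Nos3 level was not tested.

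The cGMP phosphodiesterases Pde9a and Pde11a were called lower in ventricles (log2 −0.65 and −1.23, adjusted P value = 0.033 and 0.042, edgeR). Without V123 both calls were lost (log2 −0.72 and −1.34, adjusted P value = 0.058 and 0.072, edgeR). Pde9a also lost it without each other mouse (between 0.054 and 0.11), and Pde11a without each other mouse except V333 (between 0.11 and 0.13, edgeR). Pde9a breaks down cGMP, and it was also lower in atria at an adjusted P value of 0.0082 but under the fold limit (log2 −0.57). Pde11a was below 1 CPM in every group. Furin, a protease that cuts the Nppb precursor, and Pcsk6, which activates Corin, had log2 fold changes of 0.31 and −0.51 in atria (adjusted P value = 0.0096 and 0.0078, edgeR), both under the fold limit. Mme, the peptide-degrading neprilysin, was not called in either chamber (log2 −0.35 and −0.11).

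**Figure D4:**
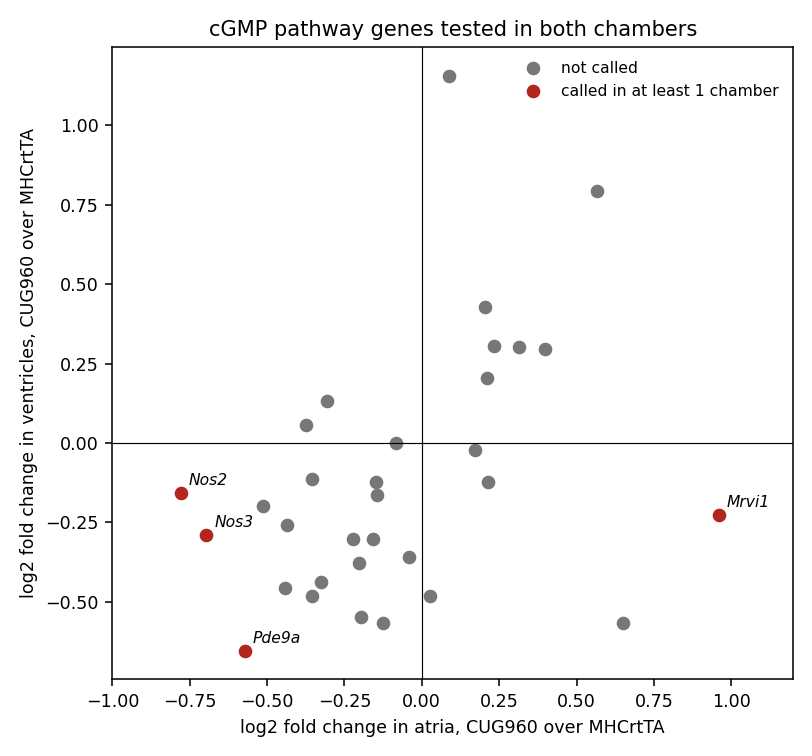
Log2 fold change of CUG960 +dox mice over MHCrtTA +dox controls in atria (horizontal) and ventricles (vertical) for the 32 listed cGMP pathway genes tested in both chambers. The 4 genes called in at least 1 chamber are red and named, and the others, in grey, passed the call in neither.

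Of the transcription factors known to act on Nppa or Nppb, 18 were tested in each chamber and 1 was called in each, where 5.49% (atria) and 4.75% (ventricles) of all genes tested were called. Hey2, a repressor of atrial genes in ventricles, was called lower in atria (log2 −0.67, adjusted P value = 0.049), and Myocd, a coactivator of serum response factor, was called higher in ventricles (log2 0.61, adjusted P value = 0.028, both edgeR). Without V123 Myocd lost the call (log2 0.65, adjusted P value = 0.052, edgeR), as it did without each other mouse except V334 (between 0.071 and 0.10). Hey2 lost its atrial call without any mouse but V123 (adjusted P value between 0.098 and 0.12, edgeR). Below 0 were 12 of the 18 in atria (median −0.17) and 9 in ventricles (median −0.01). Under the fold limit, Gata4 (log2 −0.25, adjusted P value = 0.023), Tbx5 (log2 −0.41, adjusted P value = 0.014) and Nfatc4 (log2 −0.39, adjusted P value = 0.033) were lower in atria. Tbx20 was higher (log2 0.42, adjusted P value = 0.026) and Hey2 lower (log2 −0.52, adjusted P value = 0.049) in ventricles, again under the fold limit and all by edgeR.

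Of 8 genes that often rise with Nppa in hypertrophy, 3 were called in atria and 2 in ventricles, against the same 5.49% and 4.75%. Below 0 were 6 of 8 in atria (median −0.40) and 5 of 8 in ventricles (median −0.11). The 2 called higher in ventricles were Ankrd1 (log2 1.16, adjusted P value = 6.9e-04), a stretch-responsive titin-binding protein, and Tnni1 (log2 1.63, adjusted P value = 0.017, both edgeR), the slow skeletal troponin I of the fetal heart. Ankrd1 held the call without each mouse, and Tnni1 lost it without V123 (log2 1.53, adjusted P value = 0.050, edgeR), V119 or V327 (0.052 and 0.056). In atria 0 were called higher and Rcan1, Xirp2 and Fhl1 were called lower (log2 −0.67, −0.99 and −0.89). The Xirp2 call held without each mouse, and Fhl1 lost it without V119 (log2 −0.82, adjusted P value = 0.059, edgeR). Rcan1 lost it without V119, V120 or V123 (between 0.075 and 0.11, edgeR) and fell under the fold limit without V334 (log2 −0.43). Myh7, the fetal myosin heavy chain, differed by log2 0.23 (atria) and 0.26 (ventricles) and was not called. The other hypertrophy gene with a large estimate, skeletal actin Acta1, was lower by log2 −1.02 in ventricles without passing the test (adjusted P value = 0.054, edgeR).

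The markers of other cell types were counted in the same way, against the same 5.49% of all genes called in atria and 4.75% in ventricles and a median of −0.01 in each chamber. Of 11 atrial cardiomyocyte genes, 5 were below 0 in each chamber (medians 0.03 and 0.01), 0 were called in atria, and Bmp10 was called lower in ventricles. Without V123, Myl7 (log2 −5.44), Sln (log2 −4.05) and the light chain Myl4 (log2 −2.06) were also called lower in ventricles, whereas with it they were at 0.80, 0.47 and 0.56. Of the ventricular cardiomyocyte genes, 4 of 5 tested in atria (median −0.55) and 2 of 6 in ventricles (median 0.11) were below 0, and Hey2 was called lower in atria, with the losses given above. Of 8 conduction genes, 5 were below 0 in each chamber (medians −0.26 and −0.23). Among them, the pacemaker channel Hcn4 was called higher (log2 2.55) and the connexin Gja5 lower (log2 −1.51) in atria, and the sodium channel Scn10a was called lower in ventricles (log2 −2.18). The calcium channel Cacna1g was called higher in ventricles only without V123 (log2 0.65, against 0.52 with it). Of the sinoatrial genes, 4 of 6 tested in atria (median −0.14) and 1 of 4 in ventricles (median 0.17) were below 0, and Hcn4 and Vsnl1 (log2 1.47) were called higher in atria.

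Of 5 fibroblast genes, 5 were below 0 in atria (median −0.29) and 3 in ventricles (median −0.01), and 0 were called in either chamber. All 5 leukocyte genes were below 0 in both chambers (medians −0.12 and −0.07), and 0 were called. Of 4 smooth muscle and pericyte genes, 2 were below 0 in atria (median −0.16) and 3 in ventricles (median −0.41). Of these, Myh11, the smooth muscle myosin heavy chain, was called lower in ventricles (log2 −0.65), and not without V123 (log2 −0.61, adjusted P value = 0.11, edgeR) or each other mouse except V333 (between 0.073 and 0.13 without V119, V120, V327 or V334). Nerve genes were below 0 in 4 of 5 tested in atria (median −0.14) and in 4 of 4 in ventricles (median −0.97), and 1 was called lower in atria and 2 in ventricles. Dbh, which makes noradrenaline, was called lower in both chambers (log2 −1.24 and −1.48), and its ventricular call was lost without V120 (log2 −1.36, adjusted P value = 0.054, edgeR). The part of these cells in the levels of the 8 genes was not tested.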

How the data were processed

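Stranded poly(A) RNA-Seq libraries were made from atria and ventricles of 6 mice. The authors estimated expected counts per gene with RSEM 1.3.1 on GRCm38 and deposited them as whole numbers, 1 column per library, without scaling. The submitters' notes also name DESeq2. Here edgeR 4.0.16 in R 4.3.3 was used on these counts, with filterByExpr, TMM and the quasi-likelihood test, separately for each chamber or genotype and over all 12 libraries for the interaction. P values were adjusted over all genes tested (Benjamini-Hochberg). Depth was between 116127966 and 160676189 counts, so that the 3 mice per group limit the precision of all but the lowest genes. Replicates differed by more than sampling noise (chi-square per degree of freedom between 41.3 and 122).

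Genes, lists and tests were chosen with earlier results of these data known. The 13 lists came from general knowledge. Named genes were the 8 members, list genes called in at least 1 genotype comparison, the 3 genes with the most similar profile to Nppa, Nppb and Gucy2e (root mean square difference of centred log2 CPM with a prior count of 2, among genes that averaged 1 CPM or more), and annotated neighbours. Other genes were named after their values were seen, and 1 result that the rule chose is not reported here. Atria and ventricles of a mouse share its number, and the carry-over shares were taken within each mouse. The main chamber and interaction fits did not pair the chambers by animal. The mouse entered them only as a block in an alternative. After subtraction of group means, libraries of the same mouse correlated at r between 0.0522 and 0.303 and those of different mice at r between −0.282 and 0.122.

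Alternatives were DESeq2 1.42.0, RLE size factors, upper quartile scaling, other filters, a single fit of all libraries, other fold limits, the mouse as a block, other carry-over shares and leaving out each mouse. The steps were tested on simulated data. Promoters were copied from RefSeq (GRCm38.p6, 8 of 8 genes matched) and coordinates from GENCODE M21.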

Additional observations from a re-analysis of the deposited data

Results flagged for a closer look

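The genotype difference of Nppa differed between chambers. The ventricular log2 fold change exceeded the atrial one by 1.72, and the interaction of chamber and genotype passed the threshold by edgeR (adjusted P value = 0.049). Nppa was lower in CUG960 +dox mice in 3 of 3 atria and higher in 3 of 3 ventricles than in each control. The ventricular library of V123 held 18.5 CPM of Sln and 55.8 CPM of Myl7, and without V123 the interaction was 1.73 (adjusted P value = 0.15, edgeR). The call was also lost without V120, V327 or V333 and with RLE size factors.

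The genotype difference of Npr3 also differed between chambers, by 0.75 on the log2 scale (adjusted P value = 0.029, edgeR). It was higher than in each control in 3 of 3 CUG960 ventricles, and the atrial groups overlapped. Without V123 the interaction was 0.77 (adjusted P value = 0.092, edgeR). The Npr3 call was also lost without V119, V120, V327 or V333.

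Groups had 3 libraries each, which is too few to test for a single outlying library.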

How the results depend on the processing

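The number of genes called was 969 in atria, 804 in ventricles, 6098 between chambers in controls, 5900 between chambers in CUG960 +dox mice and 253 for the interaction. Without a fold limit the first 4 counts were 2573, 1680, 9726 and 9517, and at a log2 fold change of at least 1.5 they were 216, 199, 2233 and 2200, as a looser or stricter limit must give. DESeq2 called 660 genes for the interaction. Leaving out each mouse in turn gave between 679 and 897 genes in atria, 558 and 737 in ventricles, 5239 and 5995 in controls, 5292 and 5658 in CUG960 +dox mice, and 74 (without V333) and 131 for the interaction. The block changed no call of the genes tested besides Gucy2e.

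Of the 6 genes besides Gucy2e, 1 was called in atria, 2 in ventricles, 5 and 3 between chambers in controls and CUG960 +dox mice, and 2 for the interaction. In atria there were 2 without a filter on low counts, where Nppb passed (adjusted P value = 0.015, edgeR). Without a fold limit there were 4 in atria, 4 in ventricles and 5 between chambers in CUG960 +dox mice, and at log2 1.5 there were 0, 0 and, between chambers in controls, 3. RLE size factors left 1 for the interaction. Leaving out each mouse gave 0 to 2 in atria, 1 to 2 in ventricles, 4 to 5 in controls, 3 to 4 in CUG960 +dox mice and 0 to 2 for the interaction. In atria it was 0 without V119 (no Corin) and 2 without V334 (Npr1 added).

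Leaving out a mouse turned the sign of some small values. Atrial Npr3 ran from −0.145 without V327 to 0.0631 without V333. Ventricular Nppb ran from −0.299 without V123 through 0.201 without V119 to 0.239 without V327. The interaction of Npr1 ran from −0.0909 without V123 to 0.210 without V119, that of Npr2 from −0.0431 without V119 to 0.0246 without V123, and that of Gucy2e from −0.384 without V119 to 0.291 without V123. With the mouse as a replicate block, the interaction of Gucy2e was −0.0113. Among the listed genes, ventricular Myl7, Myl4 and Sln turned from 0.80, 0.56 and 0.47 to −5.44, −2.06 and −4.05 without V123, an alternative chosen after seeing the data. Of 14 listed genes called in atria and 11 in ventricles, 8 (Mrvi1, Xirp2, Rp1, Gja5, Hcn4, Vsnl1, Pecam1 and Dbh) and 4 (Ankrd1, Rp1, Bmp10 and Scn10a) were called without each mouse in turn. Of 445 values under the alternatives for the 7 genes tested, Gucy2e included, 402 kept their direction and side of the threshold. Since Gucy2e was selected on its levels, this count does not measure how stable the results are.

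Ventricular Nppa after subtraction differed by log2 2.25, by 1.24 without subtraction, and by between 1.92 and 2.61 without each mouse. The median share, set partly by genes that ventricles express, does not measure carry-over. Shares from Sln, from Myl7 and from the median gave no log2 value, since remainders fell below 0. With these set to 0, an alternative chosen after seeing the data, the difference in means was 123.2 CPM with the lowest share, 90.2 with Sln (P = 0.4, exact permutation test), 93.9 with Myl7 (P = 0.4, exact permutation test) and 0 with the median, and 141 with Sln without V123 (P = 0.1, exact permutation test, the smallest possible). Depth limits Nppc, and Gucy2e in control ventricles.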
